A study of Ovis aries with 14 samples.

Results

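Perirenal fat, the depot around the kidney, was compared between Churra lambs slaughtered on a later and on an earlier day. The 6 Churra lambs were chosen by the breed label, out of 14 lambs in the series, and split by the slaughter day label. The late group held 3 lambs, of days 35, 30 and 29, with live weights of 10.91, 10.94 and 8.86 kg. The early group held 3 lambs, of day 23 (10.94 kg) and day 21 (10.22 and 10.06 kg). All 6 were males raised on milk replacer after a first suckling of colostrum, and the labels name no treatment. The other 8 lambs were male Assaf lambs of slaughter days 17 to 23, reared in the same way. They enter as values beside the Churra lambs, in fits of the slope on the slaughter day and of its difference between breeds, and in an alternative fit of all 14 lambs. Lambs were slaughtered on reaching market weight, so a later day and slower growth cannot be told apart. Dams and litters are not named. The design text gives ages at slaughter in days, with an upper end equal to the label of day 35 but a lower end above the lowest label, that of an Assaf lamb of day 17, so the label is called slaughter day here and not age.

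At birth the perirenal depot of the lamb is rich in brown adipocytes, which burn fat for heat in densely packed mitochondria, and during early life it is replaced by white fat that stores lipid. Each mitochondrion holds its own small circular genome, which encodes subunits of the respiratory chain and of ATP synthase, and the ribosomal and transfer RNAs that translate them. Both strands are transcribed as long precursors that are then cut into single RNAs, so the levels of the separate RNAs also reflect how each is processed and how long it lasts. In RNA from whole tissue, fewer cells of a type and less RNA per cell cannot be told apart.

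The files name genes by Ensembl ID alone, and the reference gene table pairs no Ensembl ID with a symbol. The mitochondrial genes are the exception. IDs ENSOARG00000000001 to ENSOARG00000000037 follow the order of the mitochondrial genome, and all 37 deposited lengths equal, in that order, the lengths of the 37 mitochondrial genes in the RefSeq table of assembly ARS-UI_Ramb_v3.0. These are 13 protein genes, 2 ribosomal RNAs and 22 transfer RNAs. The transfer RNAs, of 60 to 75 bases, had an effective length of 0 and a count of 0 in every lamb, so their RNA was not measured here. The tissue label could not be checked against fat cell markers for want of symbols.

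Sequencing depth ran from 14152623 to 24370948 estimated counts per Churra lamb. Depth, the genes detected (16092 to 16388 with any count) and mean fragment length (161.1 to 167.3 bases) overlapped between the groups. The first principal component of log2 CPM (counts scaled to a common library size), with 39.4% of the variance among the 6 lambs, parted the groups. Late lambs scored -28.82 (day 35), -25.70 (day 30) and -17.57 (day 29), and early lambs 0.06 (day 23), 19.02 and 53.01 (day 21). The last score belonged to the 10.06 kg lamb, whose median correlation with the other lambs was 0.953, against 0.970 to 0.972 for the rest. Without the mitochondrial genes the component took 39.3% of the variance. The second component, with 19.8%, set the day 29 lamb of 8.86 kg (-40.60) apart from the other lambs (-7.98 to 19.47).

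Across all genes, 3 of 13253 differed between late and early lambs, and all 3 were lower in late lambs (edgeR's quasi-likelihood test, threshold of 0.05 on the p adjusted by Benjamini-Hochberg). That is 0.0226% of the genes tested. No gene was called higher in late lambs (0%). Before adjustment, 2279 genes (17.2%) had p below 0.05, of which 1041 (7.85%) had higher and 1238 (9.34%) had lower fitted values in late lambs. The median change of these 2279 genes was 1.47-fold in either direction, and 347 of them changed by 2-fold or more in the fit. Values of late and early lambs did not overlap for 1542 genes higher in late lambs (11.6%) and for 1638 lower (12.4%).

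**Figure D1:**
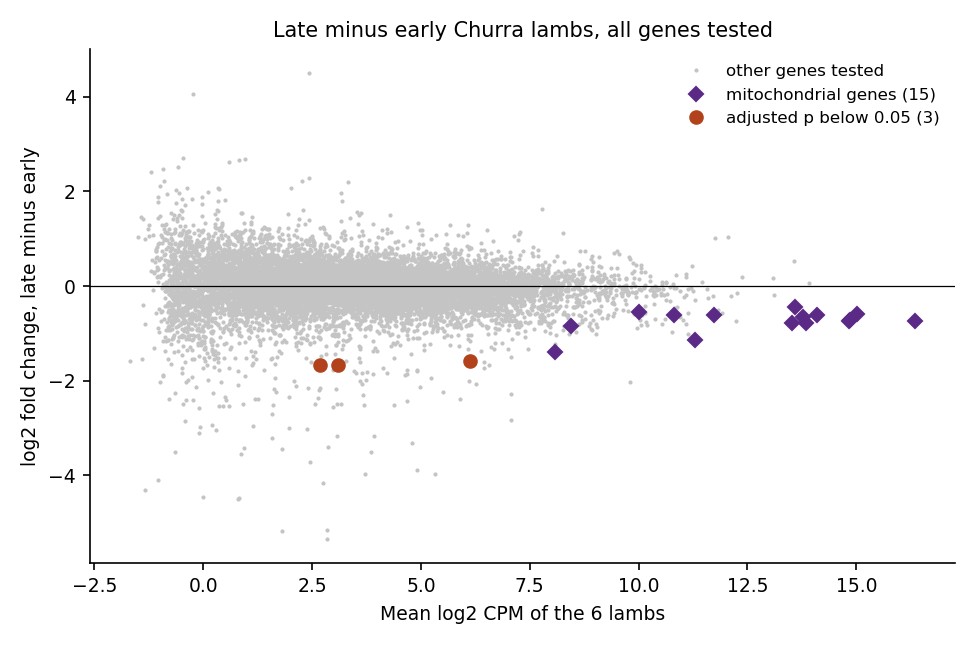
Fitted log2 fold change, late minus early Churra lambs (vertical axis), against the mean log2 CPM of the 6 lambs (horizontal axis) for 13253 genes. Diamonds are the 15 measured mitochondrial genes, which all lie below 0, and circles are the 3 genes with an adjusted p below 0.05.

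The gene with the smallest p was ENSOARG00000012783. Its level was 37.8, 40.1 and 44.2 CPM in the late lambs of days 35, 30 and 29, and 138.2 CPM in the early lamb of day 23 and 104.2 and 122.6 CPM in those of day 21. The late lambs lay close together and every early lamb lay above all of them. The mean was 40.7 ± 3.24 CPM in late and 121.7 ± 17.0 CPM in early lambs (SD, n = 3 each), a 2.99-fold lower level in late lambs (log2 fold change -1.58 ± 0.14 SE, edgeR adjusted p = 0.0432). The gene is 1416 bases long with 1 annotated transcript.

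ENSOARG00000006310, of 429 bases, was at 3.882, 3.601 and 3.150 CPM in late lambs and at 10.5, 11.7 and 11.7 CPM in early lambs, in the same order of lambs. The groups did not overlap, and the level was 3.18-fold lower in late lambs (log2 fold change -1.67 ± 0.16 SE, edgeR adjusted p = 0.0432). The remaining called gene, of 1128 bases and printed without its ID, was at 4.19, 4.65 and 5.38 CPM in late and at 14.9, 17.3 and 13.4 CPM in early lambs. It was 3.20-fold lower in late lambs (log2 fold change -1.68 ± 0.16 SE, edgeR adjusted p = 0.0432).

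ENSOARG00000009067 had the smallest p of the genes with higher values in late lambs. It was at 8.66, 7.20 and 8.43 CPM in late lambs and at 1.59, 2.59 and 1.62 CPM in early lambs, which did not overlap. The 4.23-fold difference did not pass the threshold (log2 fold change 2.08 ± 0.24 SE, edgeR adjusted p = 0.103). ENSOARG00000007525 was at 86.8, 88.2 and 98.5 CPM in late lambs and at 50.3, 57.9 and 47.3 CPM in early lambs. That 1.76-fold difference, again with no overlap, did not pass either (log2 fold change 0.82 ± 0.12 SE, edgeR adjusted p = 0.133). All of these genes were picked by p-value on the same lambs, so the lack of overlap follows in part from that choice.

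The sizes of these differences moved little with any 1 lamb left out, while the calls were often lost. The log2 fold change then lay between -1.68 and -1.48 for ENSOARG00000012783, between -1.74 and -1.59 for ENSOARG00000006310 and between -1.78 and -1.57 for the called gene without an ID. The count of calls was 0 without the lamb of day 35, of day 30, of day 21 and 10.22 kg, or of day 21 and 10.06 kg, 2 without the day 23 lamb (neither of them among the 3) and 7 without the day 29 lamb (2 of the 3 among them). It was also 0 with all 14 lambs in 3 groups, where 2024 genes had an unadjusted edgeR p below 0.05. DESeq2 called 549 genes, 181 higher and 368 lower in late lambs, with all 3 among them.

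Assaf lambs gave the same measure in animals that the comparison did not use. With scaling over all 14 lambs, ENSOARG00000012783 was at 34.2 to 87.0 CPM in the 8 Assaf lambs (median 41.8), at 36.5 to 42.7 CPM in late and at 100.6 to 132.1 CPM in early Churra lambs. The early Churra lambs thus lay above every Assaf lamb, and the late ones lay among them, although 6 of the 8 Assaf lambs had slaughter days of 21 to 23 like the early Churra lambs. The called gene without an ID showed the same placement, at 3.001 to 12.48 CPM in Assaf, 4.05 to 5.19 CPM in late and 13.1 to 16.7 CPM in early Churra lambs. ENSOARG00000006310 ranged from 4.47 to 65.8 CPM in Assaf, a wider range than between late (3.04 to 3.74 CPM) and early (10.0 to 11.4 CPM) Churra lambs. Its placement was the reverse, with every late Churra lamb below all Assaf lambs and the early ones among them. ENSOARG00000009067 was at 3.66 to 16.5 CPM in Assaf, above all early Churra lambs (1.52 to 2.50 CPM) and around the late ones (6.995 to 8.348 CPM). For ENSOARG00000007525 the Assaf range of 41.8 to 114.7 CPM held all 6 Churra lambs, but its upper end was Assaf lamb 4 alone. The next Assaf lamb, at 73.6 CPM, lay below every late Churra lamb (83.7 to 95.1 CPM).

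**Figure D2:**
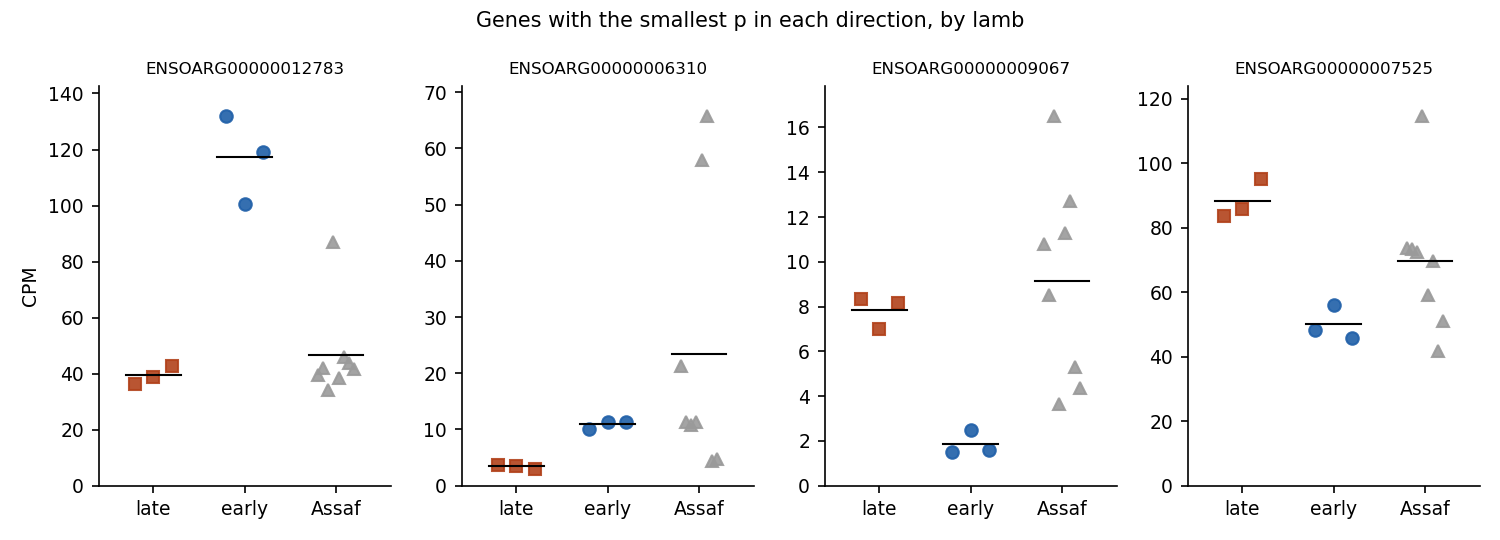
CPM, scaled over all 14 lambs, of 4 genes in late Churra (3 lambs), early Churra (3) and Assaf (8) lambs; points are lambs, lines are group means, and each vertical axis starts at 0. In ENSOARG00000012783 the early lambs (100.6 to 132.1 CPM) lie above the other 11, and in ENSOARG00000009067 they lie below them (1.52 to 2.50 CPM).

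Over all genes, the Assaf lambs of days 21 to 23 lay about as often near late as near early Churra lambs. Their median log2 CPM was nearer to the late mean for 50.3% of the 13253 genes. The share was 53.2% among the 1542 genes that were higher in every late lamb, and 47.6% among the 1638 genes that were lower. Within Assaf, the slope on the slaughter day had the same sign as the Churra difference for 72.5% of the 2279 genes with an unadjusted p below 0.05, against 59.6% of all genes. Of the 3 called genes, 1 had the same sign, and ENSOARG00000012783 and ENSOARG00000006310 had slopes of 0.68 and 0.57 on the log2 scale per 10 days in Assaf, opposite to Churra and not called (edgeR adjusted p = 0.993 and 0.996). No gene was called for that slope in Assaf (0 of 13253, 450 or 3.40% at an unadjusted edgeR p below 0.05). No gene was called for a difference in slope between the breeds either (0 of 13253, 567 or 4.28% at an unadjusted edgeR p below 0.05). Of the called genes, ENSOARG00000012783 had an unadjusted p of 0.00941 for that difference in edgeR (adjusted p = 1).

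The mitochondrial genes were the most abundant RNAs measured, with 9 of the 10 genes of highest mean CPM and 11 of the first 25. Their share of all counts was 17.7% in the day 35 lamb (exact Clopper-Pearson 95% interval 17.73% to 17.76%), 21.1% in the day 30 lamb (21.06% to 21.10%) and 27.3% in the day 29 lamb (27.28% to 27.31%). In early lambs it was 27.9% on day 23 (27.85% to 27.89%), and 28.15% (28.12% to 28.17%) and 35.3% (35.29% to 35.33%) on day 21. The intervals cover counting error only. All late lambs thus lay below all early lambs, but the day 29 lamb was much nearer to the early lambs than to the day 35 lamb. The mean was 22.0 ± 4.85% in late and 30.4 ± 4.22% in early lambs (SD, n = 3 each), a difference of -8.40 percentage points. The exact two-sided permutation p of 0.1 was the smallest that 3 against 3 lambs allow, and it was 0.36 after adjustment over 18 values compared per lamb. Counted in deposited TPM (abundance scaled by transcript length and library), the share was 22.8 to 33.5% in late and 32.8 to 40.9% in early lambs, which overlapped (exact permutation p = 0.3). Assaf lambs ranged from 16.6% to 45.7% of counts (median 28.7%), a wider span than that of all Churra lambs only through Assaf lamb 7. The next Assaf lamb was at 32.1%, below the highest Churra lamb (35.3%). For 13 of the 15 measured mitochondrial genes the Assaf median of days 21 to 23 was nearer to early than to late Churra lambs. That held for 49.7% of all genes, and the 15 are not independent of each other. The slopes of the 15 on the day in Assaf were all below 0, as were the Churra differences. They ran from -1.45 (ND6) to -0.28 (ND4L) on the log2 scale per 10 days, and none was called (edgeR adjusted p of 0.993 to 0.996).

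**Figure D3:**
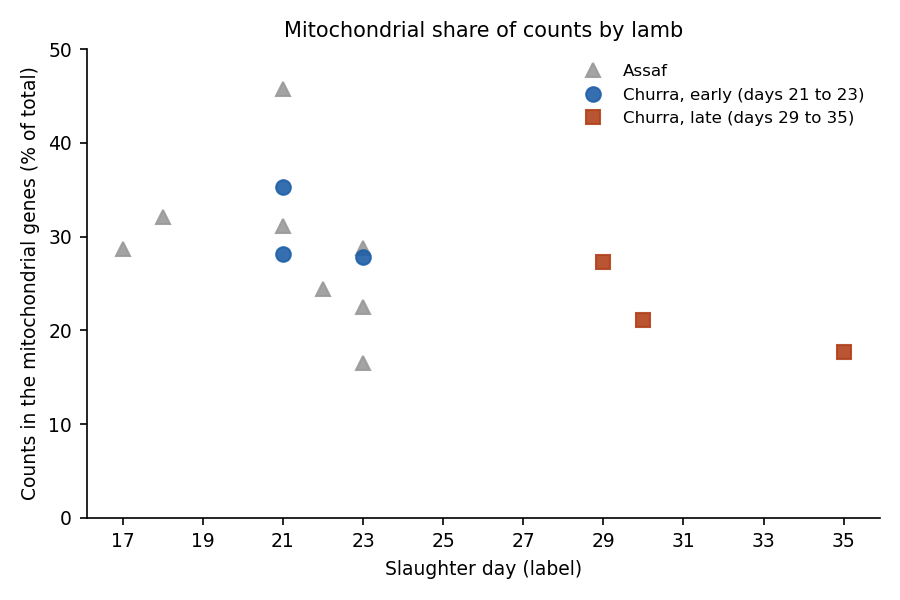
Share of all counts in the mitochondrial genes (vertical axis, in percent) by slaughter day (horizontal axis) for each of 14 lambs. Late Churra lambs (squares, 17.7% to 27.3%) lie below early Churra lambs (circles, 27.9% to 35.3%), and Assaf lambs (triangles) span 16.6% to 45.7% on days 17 to 23.

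Gene by gene, with scaling across all genes kept, the 13 mitochondrial protein genes had fitted log2 fold changes between -0.85 and -0.45, with a median of -0.65 beside 0.00 for all genes tested. None of the 13 passed the adjusted threshold in edgeR (0 of 13, with 0.0226% called over all genes), and 4 had an unadjusted p below 0.05, where 17.2% of all genes did. That count of 4 was 13 without the day 29 lamb, 2 without the day 23 or the 10.22 kg lamb, and 0 without the lamb of day 35, of day 30 or of 10.06 kg. It was also 13 with live weight as a covariate, 11 with the day as a number, 11 with DESeq2 and 7 with limma voom. With upper-quartile factors it was 2, with no scaling factors 1, with the length slope added 1 and with all 14 lambs in 3 groups 0. The other fits of all 6 lambs gave 3 to 6. With 1 lamb left out, the median log2 fold change of the 13 lay between -0.99 (without the day 29 lamb) and -0.45 (without the day 35 lamb). The fitted values of all 13 were below 0, as were those of 49.6% of all genes, and they stayed below 0 under each of 4 other scalings. With a term for the length slope (the trend of a library with gene length) all 13 were above 0, with a median of 0.44. Their edgeR adjusted p was then 0.934 to 0.992. Late and early lambs did not overlap in 5 of the 13, and 12.4% of all genes were lower in late lambs in that way. These RNAs are cut from shared precursors and are not independent of each other.

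The electron transport chain starts at complex I, which takes electrons from NADH and of which 7 subunits are mitochondrial. ND1, at the proton-pumping arm's joint with the rest of the enzyme, was at 7908, 10969 and 16053 CPM in late lambs of days 35, 30 and 29, and at 16992, 16093 and 26886 CPM in early lambs of days 23, 21 (10.22 kg) and 21 (10.06 kg). The groups were parted only narrowly, as the day 29 lamb fell just short of the lowest early lamb, and the change was not called (log2 fold change -0.78 ± 0.33 SE, edgeR adjusted p = 0.286). The other membrane subunits ND2, ND3, ND4L, ND4 and ND5 had log2 fold changes between -0.65 and -0.45 and overlapped between the groups. ND5, the longest, had the smallest difference (-0.45 ± 0.32 SE, edgeR adjusted p = 0.493), at 7636, 9714 and 15661 CPM in late and 13870, 11740 and 19381 CPM in early lambs. ND6, the only protein gene on the opposite strand, had the largest (-0.85 ± 0.37 SE, edgeR adjusted p = 0.302). It was at 165, 228 and 432 CPM in late and 425, 420 and 635 CPM in early lambs, with the day 29 lamb again among the early ones.

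CYTB, the mitochondrial subunit of complex III, which passes electrons to cytochrome c, had the smallest p of the 15 measured genes. Its level was 17762, 21022 and 30339 CPM in late lambs and 36580, 32512 and 46254 CPM in early lambs. The groups did not overlap, and the 1.67-fold difference was not called in edgeR (log2 fold change -0.74 ± 0.28 SE, adjusted p = 0.244). DESeq2 called it, alone among the 15 (adjusted p = 0.0461).

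In complex IV, which hands electrons to oxygen, COX1 carries the catalytic centre and was the RNA with the most counts. It was at 50847, 62065 and 85753 CPM in late lambs and at 90980, 99474 and 142357 CPM in early lambs, with no overlap (log2 fold change -0.74 ± 0.31 SE, edgeR adjusted p = 0.283). COX3 was parted as well, at 16850 to 33104 CPM in late and 34092 to 49179 CPM in early lambs (-0.73 ± 0.31 SE, edgeR adjusted p = 0.291). COX2, which holds the copper site that receives electrons from cytochrome c, overlapped, because the day 29 lamb (13705 CPM) exceeded the day 23 lamb (12796 CPM) and the 10.22 kg lamb of day 21 (13463 CPM).

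ATP6 and ATP8 encode subunits of ATP synthase from overlapping reading frames on 1 RNA. ATP6 forms part of the proton channel, and was at 10410, 13341 and 19639 CPM in late and 18662, 19855 and 27803 CPM in early lambs, which overlapped (log2 fold change -0.61 ± 0.30 SE, edgeR adjusted p = 0.334). ATP8 was at 2071 to 3747 CPM in late and 3762 to 5273 CPM in early lambs, parted only narrowly (-0.61 ± 0.26 SE, edgeR adjusted p = 0.291).

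The ribosomal RNAs had the widest spread. 16S rRNA was at 768, 1183 and 4151 CPM in late lambs and at 2653, 3474 and 7421 CPM in early lambs. 12S rRNA was at 85.8, 145 and 366 CPM in late and 214, 398 and 957 CPM in early lambs. In both genes the day 29 lamb lay among the early lambs, and neither change was called (log2 fold changes -1.15 ± 0.73 and -1.39 ± 0.75 SE, edgeR adjusted p = 0.451 and 0.391). Single lambs moved both: 16S rRNA was at -2.21 without the day 29 lamb and -0.59 without the 10.06 kg lamb, and 12S rRNA at -2.18 and -0.62. The sources used here do not say how ribosomal RNA was removed from these total RNA libraries. Counts of 16S over 12S rRNA were 8.16 to 11.3 in late and 7.75 to 12.4 in early lambs.

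**Figure D4:**
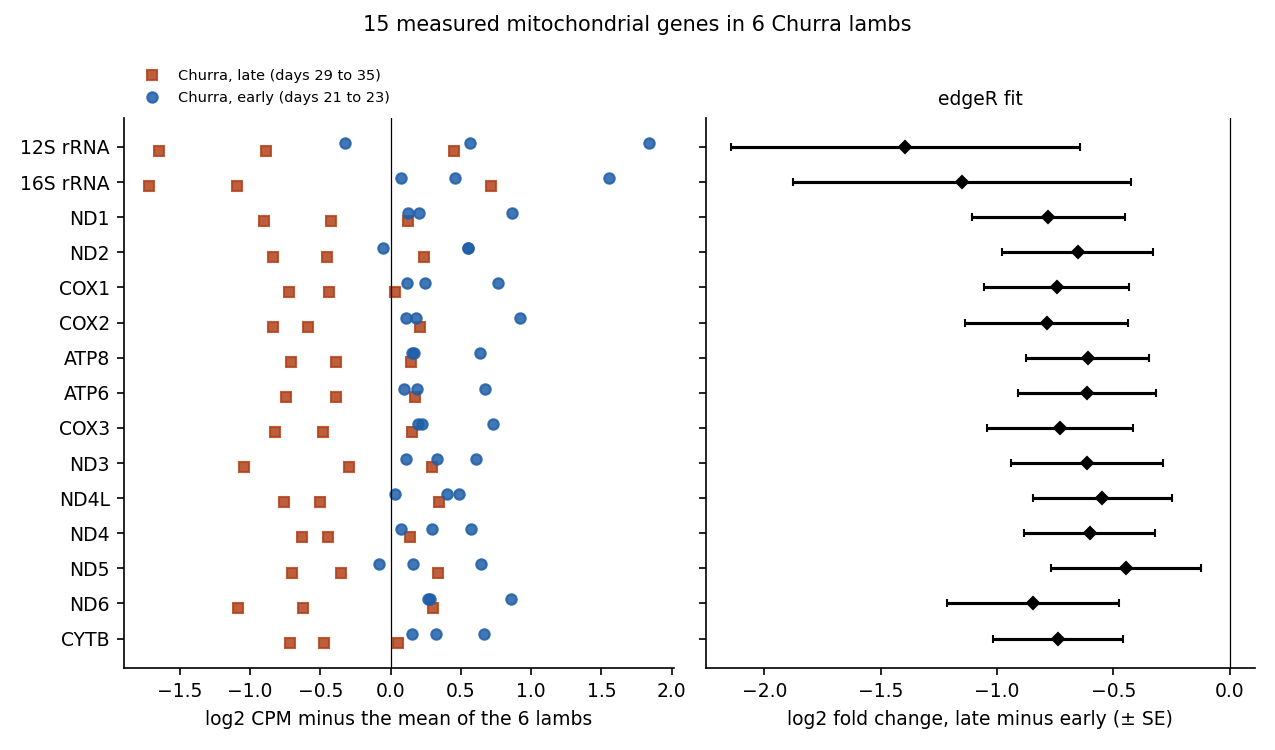
The 15 measured mitochondrial genes in genome order. Left, log2 CPM of each Churra lamb minus the mean of the 6 lambs (squares late, circles early); right, the fitted log2 fold change, late minus early, with its SE. All fitted values lie below 0, from -1.39 (12S rRNA) to -0.45 (ND5), and in most genes 1 late lamb, that of day 29, lies near or among the early lambs.

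Within the mitochondrial messages, most shares overlapped between the groups. Complex I subunits took 30.7 to 32.2% of the counts of the 13 protein genes in late and 28.0 to 32.8% in early lambs (exact permutation p = 0.5). Complex IV subunits took 48.3 to 49.2% and 47.0 to 52.2% (exact permutation p = 0.4). Of the 13 genes, ND5 and ATP8 did not overlap in their share, both with late higher. In CPM, a different measure, 11.6% of all genes did not overlap with late higher and 12.4% with late lower. ND5 took 5.06, 5.23 and 5.70% in late and 4.73, 4.15 and 4.69% in early lambs (exact permutation p = 0.1, the smallest possible, and 0.36 adjusted). Its range in Assaf, 3.64 to 5.71%, held both groups. ATP8 took 1.372, 1.392 and 1.364% in late and 1.297, 1.329 and 1.275% in early lambs, a difference that was not tested.

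Levels per length, in deposited TPM, kept nearly the same order in each lamb. Among the 10 protein genes longer than 500 bases, COX1 was highest in 6 of 6 lambs, with 46829 ± 6686 TPM in late and 62446 ± 10138 TPM in early lambs (SD, n = 3 each). COX3 followed in 6 of 6 lambs, at 37122 ± 8216 and 49340 ± 6291 TPM. COX3 in the early lambs (44016 to 56281 TPM) overlapped COX1 in the late lambs (40062 to 53431 TPM). ND6 was lowest in 6 of 6 lambs, at 722 ± 268 and 1051 ± 166 TPM. ATP8 was higher still than COX1 in TPM, but its effective length was only 48.0 to 54.6 bases, so its TPM rests on few usable positions. Counts were whole in all 6 lambs for every measured mitochondrial gene other than ND4L, ND4 among them. The posterior standard deviation of ND4L reached 6.15% of its count, and the cause was not tested.

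Gene length moved with the groups as well. Leaving out the mitochondrial genes, the 1097 genes under 500 bases had a median log2 fold change of -0.20. It was -0.10 for the 2495 genes from 500 to under 1000 bases and 0.00 for the 4378 from 1000 to under 2000 bases. The 3429 genes from 2000 to under 4000 bases had 0.08, the 1631 from 4000 to under 8000 bases 0.08 and the 208 of 8000 bases or more 0.12. Of the genes under 500 bases, 19.8% had an unadjusted p below 0.05 with lower and 2.28% with higher values in late lambs. Of those of 8000 bases or more, 3.37% were lower and 13.9% higher. The length slope of a lamb, fitted over genes between log2 length and the deviation of log2 CPM from the mean of the lambs, was 0.0319, 0.0547 and 0.0155 in late lambs of days 35, 30 and 29, and -0.0324, -0.0248 and -0.0449 in early lambs. The groups did not overlap (exact permutation p = 0.1, adjusted p = 0.36). With the length slope as a term, 0 genes were called in edgeR (660 at an unadjusted p below 0.05). The log2 fold changes of the 3 called genes were then -1.29 (ENSOARG00000012783), -1.87 (ENSOARG00000006310) and -1.70 (the gene without an ID), against -1.58, -1.67 and -1.68 without the term, with an edgeR adjusted p of 0.934 each. The median log2 fold change of the mitochondrial protein genes turned to 0.44, with an edgeR adjusted p of 0.934 to 0.992 for the single genes. Since the slope follows the group in these 6 lambs, the slaughter day and the length slope cannot be told apart. The measured mitochondrial genes are 201 to 1821 bases long. Those from 1000 to under 2000 bases (16S rRNA, ND2, COX1, ND4, ND5 and CYTB) had log2 fold changes of -1.15 to -0.45 without the term.

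**Figure D5:**
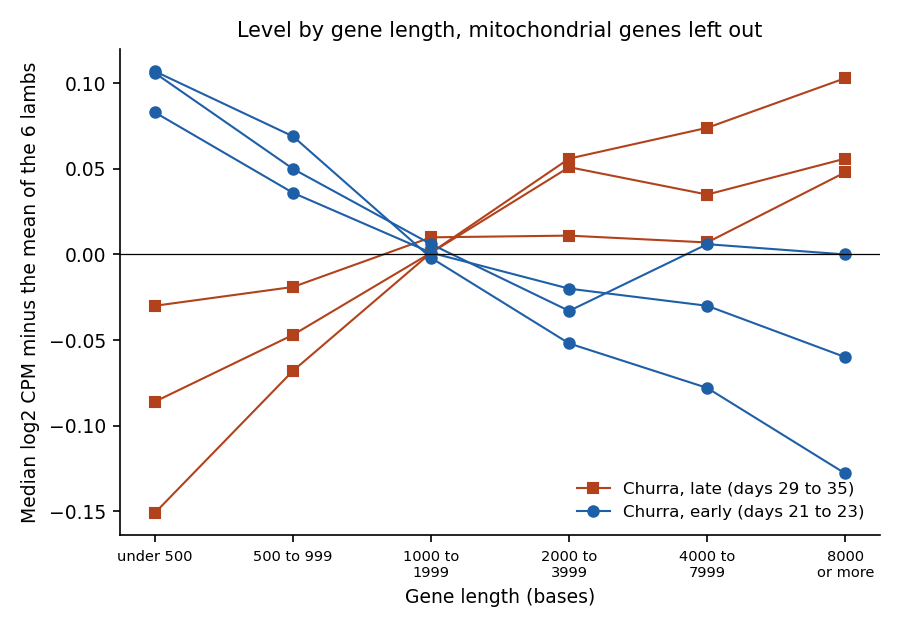
Median log2 CPM minus the mean of the 6 lambs (vertical axis) over genes of 6 length classes (horizontal axis), with the mitochondrial genes left out; each line is a lamb. In genes under 500 bases the late lambs lie between -0.15 and -0.03 and the early lambs between 0.08 and 0.11, and in genes of 8000 bases or more the late lambs lie higher.

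Level and abundance gave other contrasts. Among the 20 most abundant genes other than the mitochondrial ones, none was called in edgeR (0.0226% of all genes), and 5 had an unadjusted p below 0.05 (17.2% of all genes). Their fitted log2 fold changes ranged from -1.02 to 1.04 with a median of -0.13, and 12 were below 0, as were 49.6% of all genes. With the mitochondrial genes left out, 22.7% of the 3310 genes with the highest mean CPM had an unadjusted p below 0.05. That compares with 11.0% of the 3310 with the lowest. With a count above 0 in all 3 lambs of 1 group and 0 in the 3 of the other, 39 genes were seen in late lambs only and 29 in early lambs only. None of these had 10 or more counts in each of the 3 lambs.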

How the data were processed

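Total RNA libraries (a stranded kit, per the labels' protocols) were analysed from 1 table per lamb. The submitters' processing notes name STAR 2.4.0, RSEM 1.3.0 and build Oar_v3.1, and the sources used here give no strand setting or filter. The authors deposited estimated counts per gene, not normalized, and TPM, which are length-scaled and sum to the same total in each lamb, per the file headers. Of 27054 genes per Churra lamb, 5.01% to 5.40% had a count farther than 0.005 from a whole number. Counts were rounded, filtered with filterByExpr, scaled with TMM and tested in edgeR 4.0.16 (R 4.3.3; quasi-likelihood, robust, late against early, two-sided) over 13253 genes. Each SE was taken from the log2 fold change and its F statistic. Principal components used log2 CPM with a prior count of 2. Values per lamb were compared by exact permutation over 20 splits. No pair of lambs within a group agreed within sampling noise (smallest chi-square per degree of freedom 26.5). The named genes were the mitochondrial genes and, by p-value, 2 IDs per direction with a mean above 1 log2 CPM, since IDs have no symbols. Marker and pathway lists could not be run for that reason. Alternatives used DESeq2 1.42.0 and limma 3.58.1. The members and lists were chosen with earlier results of these data known. Replicates are single lambs. The fits were tested on simulated data with 200 changed genes. Both edgeR and DESeq2 also called unchanged genes there, and these were a larger share of the DESeq2 calls.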

Additional observations from a re-analysis of the deposited data

Results flagged for a closer look

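In each group of 8 Assaf values, a lamb was marked where its gap to the nearest other lamb was a large part of the whole range. Of 37 sets of values examined, 13 were marked, and chance marks about 1 in 20 sets. The groups of 3 Churra lambs were too small for this. Assaf lamb 7 (slaughter day 21) accounted for 11 of the marks, all in mitochondrial values that share 1 source and move together. Its ribosomal RNA took 1.01% of all counts (next lamb 0.428%) and 2.22% of mitochondrial counts (next 1.49%). Scaled over 14 lambs, it had 13850 CPM of 16S rRNA (next lamb 4067), 41402 CPM of ND1 (20262) and 200863 CPM of COX1 (103502). It also had 8615 CPM of ATP8 (4879), 43986 CPM of ATP6 (24817), 87985 CPM of COX3 (47217), 2311 CPM of ND4L (1310), 89876 CPM of ND4 (47659) and 33137 CPM of ND5 (17193). Assaf lamb 4 (slaughter day 23) was highest for ENSOARG00000012783, at 86.96 CPM with the next Assaf lamb at 46.08 CPM, and for ENSOARG00000007525, at 114.7 CPM with the next at 73.63 CPM. No cause was tested.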

How the results depend on the processing

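The count of 3 genes called between late and early Churra lambs was 3 with DESeq2 size factors in edgeR, with scaling from the other genes, with a mean count of 10, at an adjusted p below 0.10 and with the mitochondrial genes taken out. It was 1 with upper-quartile factors, 1 with limma voom, 5 with live weight as a covariate, 10 where no genes were filtered, 549 with DESeq2 and 11 without the day 29 and the 10.06 kg lamb together. It was 0 in limma-trend fitted to log2(TPM + 0.5) (3522 at an unadjusted p below 0.05), 0 with all 14 lambs (2024), 0 with the day as a number (2313), 0 with the length slope added (660), 0 with no scaling factors (3084) and 0 at an adjusted p below 0.01. With 1 lamb left out it lay between 0 and 7. For these counts the cause was not tested. The fits without scaling factors, with the mitochondrial genes taken out and without 2 lambs were chosen after seeing the data. Of the 13 mitochondrial protein genes, 1 was called with DESeq2 (CYTB) and 0 in the other fits run. With the length slope added the log2 fold changes of all 15 measured mitochondrial genes turned, to 1.32 (12S rRNA), 1.91 (16S rRNA), 0.42 (ND1), 0.55 (ND2), 0.23 (COX1), 0.77 (COX2), 0.40 (ATP8), 0.44 (ATP6), 0.43 (COX3), 0.18 (ND3), 1.16 (ND4L), 0.47 (ND4), 0.90 (ND5), 0.72 (ND6) and 0.27 (CYTB). Their edgeR adjusted p was then 0.934 to 0.992. Since the length slope follows the group in these 6 lambs, that fit cannot settle their sign. The log2 fold changes of the 15 stayed below 0 in the other 19 fits. The median of all genes rose from 0.00 to 0.25 with no scaling factors and to 0.295 with limma-trend, where the mitochondrial protein genes had medians of -0.43 and -0.36. The difference in the mitochondrial share was -7.85 percentage points in TPM, -8.27 with the protein genes over all counts but the ribosomal RNAs, and between -11.03 and -5.97 with 1 lamb left out. ENSOARG00000012783 and ENSOARG00000006310 kept their sign in all 21 alternatives and lost the call in 10 and 14 of them. No paired analysis was possible because the replicate numbers only follow the order of the samples and pair no lambs.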
